A study of Mus musculus with 5 samples.

Results

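A set of 10 genes used to follow neutrophils was examined in prostate tumors of TripleTg mice. The members were taken by symbol from the deposited count table, in which all 10 of 10 have a row among 24527 genes. They are S100a8, S100a9, Retnlg, Ly6g, Csf3r, Trem1, Csf3, Il1b, Mpo and Elane. Bulk RNA-seq was made from prostate tumor tissue of 3 castrated and 2 intact mice. All 5 mice carried hHGFtg, hMETtg, stabilized β-catenin (BCAT) and PBCre, so no group here lacks the transgenes. Human HGF is expressed from its own transgene, whereas human MET and stabilized β-catenin are switched on where the probasin promoter drives Cre, in prostate epithelium. The castrated mice had lost their testes at 4 months, and both groups were analyzed at 8 months of age. The mice came from mixed C57BL/6 and C3H SCID stock. The SCID allele blocks the maturation of T and B cells and leaves neutrophils in place, and which mice carried it was not given in the sources used here. The comparison asks how the tumors differ after castration, and here it is followed through the neutrophil genes.

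Neutrophils are short-lived granulocytes that bone marrow releases under the control of G-CSF, which acts through the receptor encoded by Csf3r. Their cytosol is packed with the calcium-binding proteins S100A8 and S100A9, which pair to form calprotectin. Myeloperoxidase (Mpo) and neutrophil elastase (Elane) are stored in granules whose mRNAs are made in marrow precursors and are nearly switched off in mature cells. In tumors, neutrophils are known as sources of proteases, interleukin 1β and reactive oxygen. S100a8, S100a9 and Il1b are also expressed by monocytes, and S100a8 and S100a9 by stressed squamous epithelium.

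Total counts were 28015507, 18951782 and 20492061 in castrated 1, 2 and 3, and 21560355 and 22853501 in intact 1 and 2. CPM scales each count to these totals, and TPM also divides by gene length, so that only TPM compares levels between genes. The intact libraries stood apart from each other. Tgm4, a secreted transglutaminase of the prostate, had 28976 counts in intact 2 and between 1 and 12 in the other 4 samples. Pbsn, which encodes probasin, had 112 counts in intact 2 and none in intact 1, so the defining secretory markers of the labelled tissue were nearly absent from 4 of 5 samples. The epithelial genes Krt8, Krt18 and Epcam were abundant in every sample, with a CPM of at least 481.

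The sequences upstream of S100a8, S100a9 and Csf3r are shown because the calprotectin pair varied together across samples and Csf3r was the only one of the 7 tested members whose groups did not overlap. They are the 250 bases before the annotated start, from RefSeq on GRCm38.p6, the assembly of mm10. S100a8 lies at chr3:90668821-90669070 on the plus strand, S100a9 at chr3:90695722-90695971 on the minus strand, and Csf3r at chr4:126024409-126024658 on the plus strand. Capitals mark matches to TATAAA on the strand of the gene, and to GAGGAA (a core bound by PU.1) and TTNCNNAA (a loose C/EBP pattern) on either strand. No matches overlapped in these windows, although in S100a8 a PU.1 match runs directly into TATAAA.
S100a8: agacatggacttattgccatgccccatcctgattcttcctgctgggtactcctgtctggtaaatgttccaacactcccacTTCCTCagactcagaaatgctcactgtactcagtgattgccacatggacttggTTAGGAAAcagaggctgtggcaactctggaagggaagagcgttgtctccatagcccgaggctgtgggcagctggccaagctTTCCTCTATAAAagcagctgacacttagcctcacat
S100a9: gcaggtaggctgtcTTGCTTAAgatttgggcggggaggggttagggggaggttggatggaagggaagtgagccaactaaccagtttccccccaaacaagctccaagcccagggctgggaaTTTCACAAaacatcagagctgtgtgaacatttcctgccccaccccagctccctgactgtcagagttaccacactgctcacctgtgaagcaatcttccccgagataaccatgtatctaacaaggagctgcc
Csf3r: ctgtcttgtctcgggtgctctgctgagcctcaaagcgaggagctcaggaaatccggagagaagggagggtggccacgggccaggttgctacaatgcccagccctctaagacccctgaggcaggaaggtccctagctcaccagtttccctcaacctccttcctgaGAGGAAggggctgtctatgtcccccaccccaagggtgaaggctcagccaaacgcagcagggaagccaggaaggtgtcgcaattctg
In S100a8, TATAAA covers the bases from 30 to 25 before the start, 2 PU.1 matches begin 170 and 36 bases before it, and 1 C/EBP match begins 117 bases before it. S100a9 has 2 C/EBP matches, beginning 236 and 130 bases before its start. Csf3r has 1 PU.1 match, which begins 86 bases before the start. Of 32851 windows of this length, 7.59% hold TATAAA, 23.3% GAGGAA and 36.8% TTNCNNAA. Matches to GAGGAA and TTNCNNAA are thus common, and all matches are only a description of these letters. Windows were found for 9 of the 10 members.

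By mean TPM over the 5 samples the members fell into 3 tiers. S100a8 (222) and S100a9 (196) were highest, followed by Il1b (42.6), Retnlg (33.8), Csf3r (12.9), Ly6g (8.56) and Trem1 (6.43). Mpo (0.688), Csf3 (0.496) and Elane (0.402) were lowest. S100a8 was above S100a9 in all 5 samples, although their ranges, 159 to 349 and 111 to 321 TPM, overlap. Several neighbors in this order changed places between samples. Il1b was above Retnlg in 3 of 5 samples, with Retnlg higher in castrated 1 and intact 1, and Ly6g was above Csf3r and Trem1 only in intact 1. Csf3 was above Elane in 2 of 5 samples and Mpo above Csf3 in 4 of 5. The test in edgeR took genes that reached a CPM above 1 in 2 or more samples. This kept 7 members, while Mpo, Csf3 and Elane did not pass and are given as counts. Of 14612 genes tested, 0 (0%) were called, which required an adjusted p below 0.05 together with a log2 fold change beyond 1 in either direction, and 2195 had an unadjusted p under 0.05 (edgeR's quasi-likelihood test). DESeq2 called 989 genes and edgeR's likelihood ratio test 369, with no member among them, and limma voom called 0.

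**Figure D1:**
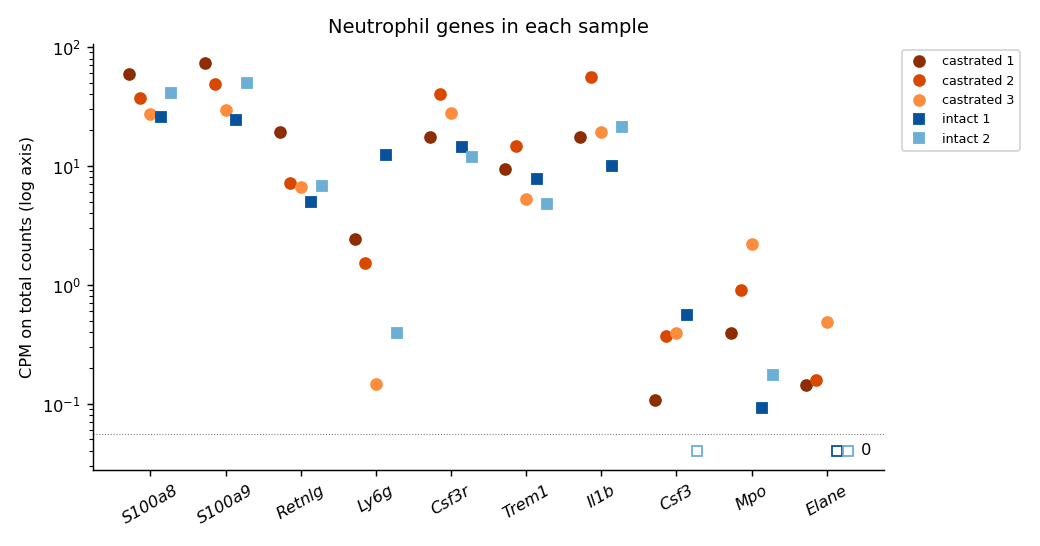
CPM on total counts (log axis) of the 10 neutrophil genes in castrated (circles) and intact (squares) samples, where open symbols under the dotted line are samples with 0 counts. Csf3r, Mpo and Elane have every castrated sample above both intact samples, and Ly6g has its highest value, 12.4, in intact 1.

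S100a8 and S100a9 encode the subunits of calprotectin, which binds metal ions and signals as an alarmin. They are neighbors on chromosome 3, with S100a8 at chr3:90669071-90670034 and S100a9 at chr3:90692630-90695721 (mm10, as are all coordinates here). S100a8 had 1659, 700 and 563 counts in castrated samples (CPM 59.2, 36.9 and 27.5), and 558 and 945 in intact samples (CPM 25.9 and 41.4). Castrated 1 was highest and intact 1 lowest, and intact 2 lay above castrated 2 and 3. The means were 41.2 ± 16.3 CPM (SD, n = 3) and 33.6 ± 10.9 CPM (SD, n = 2). The log2 fold change was 0.25 with a standard error of 0.42 (adjusted p = 0.805, edgeR's quasi-likelihood test, Benjamini-Hochberg adjusted). For S100a9, CPM was 72.9, 49.2 and 29.8 in castrated and 24.2 and 50.0 in intact samples. The samples kept the same places at the top and the bottom as for S100a8, and the groups overlapped. Its log2 fold change was 0.40 with a standard error of 0.51 (adjusted p = 0.739, edgeR's quasi-likelihood test). The ratio of S100a9 to S100a8 in TPM stayed between 0.697 and 0.994 in all 5 samples, against a 2.29-fold range of S100a8 itself. Without intact 1, the log2 fold changes were -0.080 and -0.055, and without castrated 1 that of S100a8 was -0.085, so the signs of these estimates rested on 1 library.

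Retnlg encodes a resistin-like protein that is abundant in mouse blood neutrophils, and lies at chr16:48872608-48874498. Its CPM was 19.2, 7.23 and 6.59 in castrated and 5.01 and 6.83 in intact samples. Castrated 1 stood alone at the top, and the other 4 samples lay between 5.01 and 7.23, with intact 2 above castrated 3. The log2 fold change of 0.85 (standard error 0.59) had an adjusted p of 0.530 in edgeR's quasi-likelihood test, and it was 0.20 without castrated 1.

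Ly6g, the surface protein by which mouse neutrophils are usually gated (gene at chr15:75155261-75159128), was the only tested member with a lower estimate in castrated samples. Counts were 68, 29 and 3 after castration against 267 and 9 without it, or a CPM of 2.43, 1.53, 0.146, 12.4 and 0.394. Intact 1 held most of the reads, while S100a8, S100a9, Retnlg and Il1b were each at their lowest in that sample. The log2 fold change was -2.17 with a standard error of 1.46 (adjusted p = 0.517, edgeR's quasi-likelihood test), and it became 1.72 without intact 1 and -3.16 without intact 2, each of which leaves 1 intact library. Ly6g belongs to a family of close paralogs on chromosome 15, so its count is uncertain where reads could fit several of them. The paralog Ly6c2, a monocyte gene, had its lowest CPM in the intact samples (0.649 and 0.569), and Ly6i had between 5 and 18 counts in every sample.

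Csf3r, the G-CSF receptor, was the only member tested whose groups did not overlap. It lies at chr4:126024659-126044975. Its counts were 491, 764 and 575 in castrated and 308 and 272 in intact samples, which gives a CPM of 17.5, 40.3 and 28.1 against 14.3 and 11.9. All 3 castrated samples lay above both intact samples, with castrated 1 nearest to them. Means were 28.6 ± 11.4 CPM (SD, n = 3) and 13.1 ± 1.69 CPM (SD, n = 2). The log2 fold change was 1.12 with a standard error of 0.42, and its unadjusted p of 0.0420 became 0.322 after adjustment over all genes (edgeR's quasi-likelihood test, Benjamini-Hochberg adjusted). So 1 of the 7 tested members had an unadjusted p under 0.05 and a higher mean in castrated samples, where 8.74% of all genes tested did, and none was lower, against 6.28%. The groups did not overlap, with castrated samples higher, in 1 tested member and in 17.8% of all genes tested, and the reverse in none and in 15.3%. The estimate ranged from 0.78 to 1.38 over the fits that each left out 1 sample, and in 4 of those 5 fits, all but the one without castrated 1, the unadjusted p was above 0.05. The fits without intact 1 or intact 2 leave 1 intact library and take their spread from the castrated samples alone.

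Csf3, which encodes the ligand G-CSF and lies at chr11:98701313-98703629, was barely detected. Counts were 3, 7 and 8 after castration, 12 in intact 1 and 0 in intact 2. The 0 counts in intact 2 allow up to 0.131 CPM at a limit of 3 counts, while the 12 counts in intact 1 correspond to 0.557 CPM with an exact 95% Poisson interval from 0.288 to 0.972. These intervals cover counting error only. The intact samples lay further apart than these intervals, so low counts and spread between samples both limit the comparison. Without the filter on low counts, the log2 fold change was 0.031 with a standard error of 1.28 (adjusted p = 0.991, edgeR's quasi-likelihood test).

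Trem1, an activating receptor of neutrophils and monocytes that signals through DAP12 (gene at chr17:48232739-48246924), had a CPM of 9.35, 14.8 and 5.27 in castrated and 7.70 and 4.77 in intact samples. Castrated 3 fell between the intact samples, so the groups overlapped. The log2 fold change was 0.65 with a standard error of 0.54 (adjusted p = 0.599, edgeR's quasi-likelihood test), and it was 0.21 without castrated 2 and 0.36 without intact 2.

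Il1b encodes interleukin 1β, a cytokine that needs cleavage by caspase 1 to become active, and lies at chr2:129364578-129371139. Counts were 493, 1062 and 396 after castration against 215 and 490 without it, or a CPM of 17.6, 56.0, 19.3, 9.97 and 21.4. Castrated 2 was far above the rest, and intact 2 lay above castrated 1 and 3. The estimate of 0.94 on the log2 scale had a standard error of 0.69 and an adjusted p of 0.556 in edgeR's quasi-likelihood test, and it was 0.19 without castrated 2, 0.47 without intact 1 and 1.65 without intact 2. The gene Il1bos overlaps Il1b on the opposite strand, and whether counting used strand was not stated. Il1bos had 218 counts in intact 2 and between 2 and 15 in the other samples, so the Il1b value of intact 2 is the least certain.

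**Figure D2:**
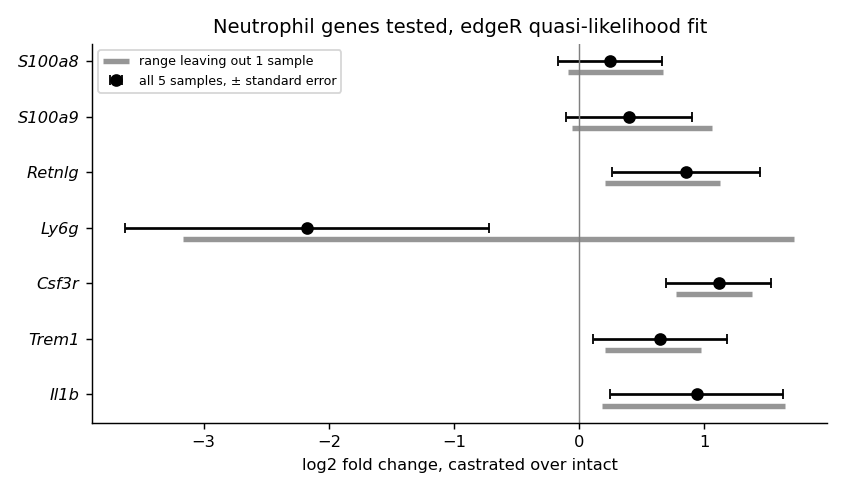
Log2 fold change, castrated over intact, of the 7 neutrophil genes tested, with points and bars for the estimate and its standard error over all 5 samples and grey bars for the range when each sample was left out in turn. The grey bars of S100a8, S100a9 and Ly6g cross 0, and those of Csf3r (0.78 to 1.38), Retnlg, Trem1 and Il1b do not.

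Mpo (chr11:87793784-87804412) and Elane (chr10:79886312-79888216), the granule enzymes, were close to the limit of detection. Mpo had 11, 17 and 45 counts after castration and 2 and 4 in the intact samples, with a mean of 1.16 ± 0.930 CPM (SD, n = 3) against 0.134 ± 0.0582 CPM (SD, n = 2). Every castrated sample was above both intact samples, and castrated 3 held most of the reads. Elane had 4, 3 and 10 counts after castration and 0 in both intact samples. Summed over the groups this is 0.252 CPM against a limit of 0.0676 CPM (3 counts over the group), so the pooled castrated value was 3.73-fold that limit. This ratio leaves out the counting error of the castrated counts and the spread between mice, so it is not a lower bound. Castrated 3 held 10 of the 17 castrated counts, and without it the ratio was 2.21-fold. Without intact 1 or intact 2 the ratio was 1.92-fold and 1.81-fold, and leaving out samples for this ratio was chosen after seeing the data. Fitted without the filter on low counts, Mpo and Elane had unadjusted p of 0.0311 and 0.0308 and an adjusted p of 0.344 for both (edgeR's quasi-likelihood test). On chromosome 10 Elane sits 2637 bases from Cfd, an adipocyte gene with 2790 and 3461 counts in castrated 2 and 3. Cfd had 48 counts in castrated 1 and 0 in intact samples, and whether its reads contribute to the few of Elane was not tested.

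Other genes of mature neutrophils were compared next, with all 15 of the list tested. Of these, 11 had a higher and 4 a lower estimate in castrated samples, with a median log2 fold change of 0.97 against -0.028 over all genes tested. That median was 0.36 without castrated 2, 0.42 without intact 2 and 1.47 without intact 1. Mmp9 (1.90) and Ptafr (2.38) were among those with an unadjusted p under 0.05, both higher in castrated samples. They encode gelatinase B and the receptor for platelet-activating factor, and macrophages also express them. Mmp9 reached 41.2, 133 and 34.9 CPM in castrated samples against a mean of 18.6 ± 2.01 CPM (SD, n = 2) in intact samples, and the groups did not overlap. The lectin Clec4d, the most abundant of the list, had a CPM of 41.3, 153 and 46.2 in castrated and 32.2 and 14.3 in intact samples, again with castrated 2 on top. The groups did not overlap in 5 of the 15 genes, all with castrated samples higher, where 17.8% of all genes tested did so. Mmp9, Ptafr, Clec4d and Ltb4r1 were among these. Ltb4r1 had a CPM of 1.93, 2.48 and 4.05 in castrated and 0.649 and 1.27 in intact samples. For Cxcr2, Cd177, Mmp8, Fpr2 and Il1r2 the groups overlapped. The chemokine receptor Cxcr2 lay between 7.25 and 17.4 CPM in castrated samples, and at 8.07 and 3.98 CPM in intact samples. Cd177, a neutrophil surface protein, ranged from 4.16 CPM in intact 2 to 97.3 CPM in castrated 2, with 64.8 CPM in intact 1. The collagenase Mmp8 (CPM 16.3), the formyl peptide receptor Fpr2 (8.95) and the decoy receptor Il1r2 (20.3) were each highest in intact 1, as Ly6g was.

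The granule list holds genes of secondary granules and of marrow precursors. Of its 12 genes 7 were tested, 6 with a higher and 1 with a lower estimate in castrated samples (median log2 fold change 0.60, but -0.084 without castrated 3 and 1.81 without intact 1), and Prtn3, the gene of proteinase 3, alone had an unadjusted p under 0.05. Prtn3 had 33, 18 and 33 counts in castrated and 10 and 4 in intact samples, and the estimate of 1.95 on the log2 scale had a standard error of 0.70 and an adjusted p of 0.316 in edgeR's quasi-likelihood test. Ms4a3 and Fcnb had no counts in intact samples and at most 8 in any castrated sample. Cebpe, which encodes the factor that drives secondary granule genes, had 13, 22 and 18 counts after castration against 1 and 0 without it. Ltf, Lcn2 and Pglyrp1 were the most abundant, and Ltf and Lcn2 are also made by epithelium. Ltf (lactoferrin) ranged from 151 CPM in castrated 1 to 1062 CPM in castrated 3, and Pglyrp1 from 54.9 CPM in intact 2 to 867 CPM in intact 1. By contrast Camp and Ngp, which share the secondary granule with Ltf, had 20 and 184 counts in castrated 1 and at most 5 and 26 in the other samples. Ltf and Ngp thus had their lowest and highest castrated values in the same library.

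**Figure D3:**
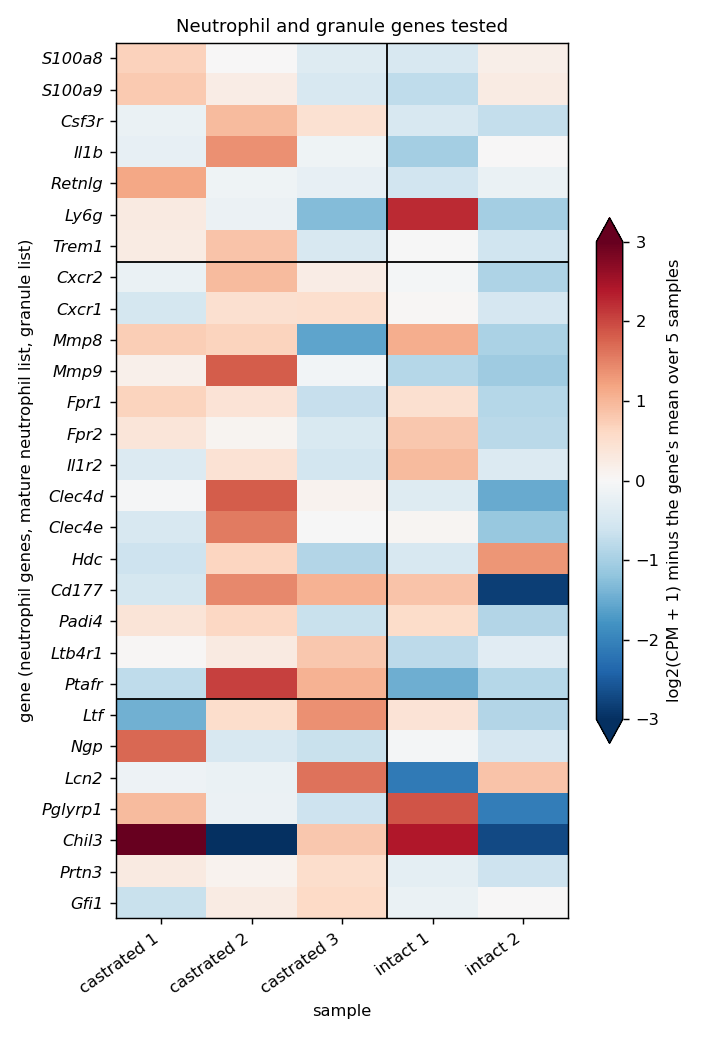
Log2(CPM + 1) of the tested neutrophil genes, mature neutrophil genes and granule genes reported here (rows, separated by lines) in each sample (columns), minus the mean of the gene over the 5 samples. Castrated 2 is above the mean for Il1b (1.37), Mmp9 and Clec4d, castrated 1 for S100a9 and Retnlg, and intact 1 for Ly6g (2.24), Mmp8 and Pglyrp1.

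Attractants and growth factors showed a mixed picture. Of 12 genes 10 were tested, 8 with a higher and 2 with a lower estimate (median 0.84 on the log2 scale, and 0.43 without intact 2), and 2 had an unadjusted p under 0.05, both higher in castrated samples. Cxcl12, the stromal chemokine that retains neutrophils in marrow, had a CPM of 89.1, 331 and 289 in castrated and 13.6 and 15.0 in intact samples (4.03 on the log2 scale with a standard error of 0.68 and an adjusted p of 0.289 in edgeR's quasi-likelihood test). Csf1, the macrophage growth factor, was higher by 1.20 on the log2 scale with a standard error of 0.39. The CXCR2 ligands overlapped between groups. Cxcl5 had a CPM of 21.2, 84.8 and 88.1 in castrated and 21.0 and 32.2 in intact samples, and Cxcl2 was highest in intact 1, at 39.9 CPM. Il17a had 1 count in all samples together.

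In the list for signaling from the G-CSF receptor, 10 of 10 genes were tested with 7 estimates higher and 3 lower (median 0.55 on the log2 scale, 0.30 without castrated 2 and 0.98 without intact 2), and 4 had an unadjusted p under 0.05, all higher in castrated samples. These were the kinase gene Jak1 (log2 fold change 0.96), the transcription factor genes Cebpa (2.5) and Cebpb (0.93), and Spi1 (1.96), which encodes PU.1. Cebpa is also strongly expressed in fat cells, whose markers are given below. The estimate was 0.51 for Stat3 (standard error 0.26) and -0.26 for Jak2 (standard error 0.17). Socs3, a feedback target of STAT3, overlapped between groups, with a CPM of 75.2, 126 and 48.4 in castrated and 81.9 and 29.2 in intact samples.

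Around interleukin 1, 9 of 12 tested genes had a higher and 3 a lower estimate (median 0.49 on the log2 scale, 0.31 without castrated 2 and 0.86 without intact 2), and 2 had an unadjusted p under 0.05. Il1rn, which encodes the natural receptor antagonist, had a CPM of 44.1, 158 and 119 in castrated and 35.7 and 38.1 in intact samples (log2 fold change 1.52, standard error 0.57). Casp1, the protease that activates interleukin 1β, was higher by 1.24 with a standard error of 0.48. The receptor Il1r1 had its highest CPM, 308, in intact 2, and the accessory chain Il1rap its highest, 113, in intact 1. In the TREM list 9 of 10 genes were tested, 7 with a higher and 2 with a lower estimate (median 1.07 on the log2 scale), and Tyrobp (1.80), which encodes DAP12, Trem2 (2.22) and Treml4 (1.95) had an unadjusted p under 0.05. Trem2 marks macrophages and shares DAP12 with Trem1. The signaling genes downstream differed in their estimates. Syk, the kinase that DAP12 recruits, had a CPM of 46.5, 158 and 92.5 after castration against 40.1 and 41.7 without it, so the groups did not overlap (1.26 on the log2 scale with a standard error of 0.54 and an adjusted p of 0.353 in edgeR's quasi-likelihood test). For Bcl10 and Malt1, which act further down, the estimates were -0.061 and -0.24 and the groups overlapped.

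Among 6 genes for receptors of S100A8 and S100A9 and their partners, 2 estimates were higher and 4 lower (median -0.21 on the log2 scale, -0.088 without castrated 1, -0.070 without intact 2 and 0.058 without intact 1). Cd36 was higher by 5.79 on the log2 scale (standard error 1.45), while Ager, the gene of RAGE, had an estimate of -1.90 (standard error 0.66), both with an unadjusted p under 0.05 and an adjusted p of 0.290 and 0.310 (edgeR's quasi-likelihood test). Cd36 is a fatty acid transporter of fat cells and macrophages. Tlr4 averaged 57.1 ± 14.0 CPM (SD, n = 3) after castration and 64.5 ± 25.5 CPM (SD, n = 2) without it, and its estimate was -0.21. Cd14 and Bsg also overlapped between groups.

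In bulk tissue, fewer cells of a type and less RNA per cell cannot be told apart, so markers of other cells were read beside the neutrophil genes. The 10 members summed to 199, 208 and 120 CPM in castrated samples, and intact 1 was lowest and intact 2 reached 137 CPM, with S100a9 taking 29.6% of the summed CPM over all samples. The groups overlapped. General leukocyte genes summed to 532, 2021 and 1084 CPM against 288 and 328 CPM, and the 6 genes tested (Ptprc, Coro1a, Laptm5, Cd53, Arhgdib and Itgb2) each had an unadjusted p under 0.05 and groups that did not overlap, with a median of 1.76 on the log2 scale. The monocyte and macrophage list summed to 2859, 7491 and 3215 CPM against 1200 and 1675 CPM, with Lyz2 taking most of the sum and Cd68 and C1qa next. Of its 13 genes (median 1.56 on the log2 scale, and 1.01 without castrated 2), 9 had an unadjusted p under 0.05, all higher in castrated samples (Csf1r, Adgre1, Cd68, Mrc1, C1qa, C1qb, C1qc, Cd163 and Ly6c2). Castrated 2 was highest in both lists, as it was for Csf3r, Il1b and Trem1.

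Blood markers followed another order. The red blood cell genes summed to 2104, 112 and 63.9 CPM in castrated samples and to 7.004 and 185 CPM in intact samples, led by Hbb-bs, with Hba-a1 and Hbb-bt next. Castrated 1 was highest and intact 1 lowest, the same extremes as for S100a8, S100a9 and Retnlg. Globin genes share reads with near-identical copies, so single genes of this list are uncertain. The platelet gene Pf4 had a CPM of 43.5, 84.6 and 19.1 in castrated and 6.54 and 4.86 in intact samples (log2 fold change 3.10, standard error 0.71) and made up 92.1% of the platelet sum. Itga2b, the other platelet gene tested, had a CPM of 4.11, 1.58 and 2.29 against 2.60 and 1.62 and overlapped between groups, while the platelet markers Gp9, Gp1bb and Gp6 had at most 9 counts in any sample. Squamous genes, led by Sprr1a and Krt6a, summed to 136, 46.5 and 58.1 CPM in castrated and 79.9 and 201 CPM in intact samples, with Lor lower in all castrated samples (-1.44). Intact 2 was highest in that list, and S100a7a, another gene of the S100 family, had 749 counts in intact 2 and at most 39 elsewhere. Fat cell genes summed to 40.6, 577 and 539 CPM in castrated and 27.0 and 49.1 CPM in intact samples. The part of these cells in the values of the neutrophil genes was not tested.

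**Figure D4:**
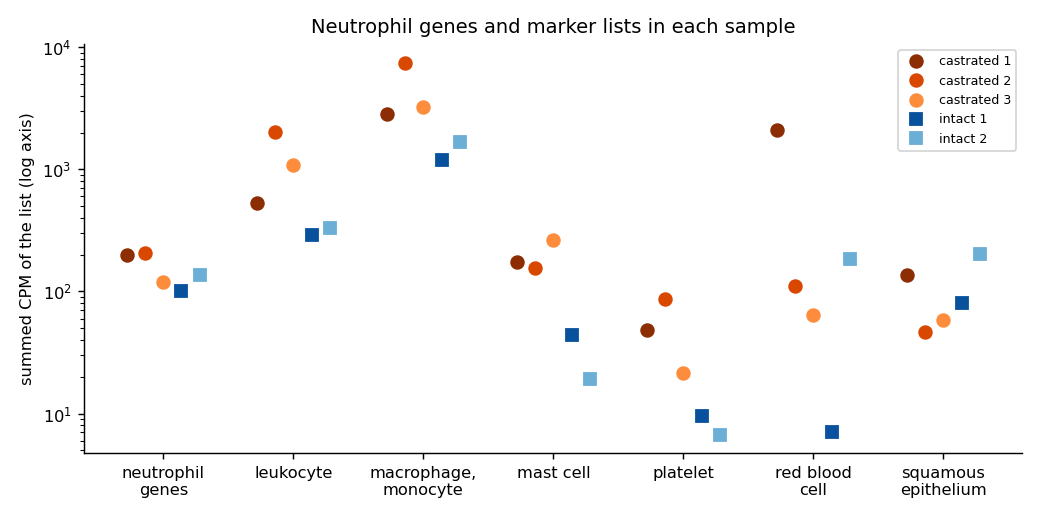
Summed CPM (log axis) of the 10 neutrophil genes and of 6 marker lists in castrated (circles) and intact (squares) samples. Leukocyte, macrophage and mast cell lists have all castrated samples above both intact samples, as has the platelet list through Pf4, whereas the neutrophil, red blood cell and squamous lists overlap, and castrated 1 reaches 2104 CPM for red blood cell genes.

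Dividing by Ptprc, the gene of the leukocyte surface protein CD45, sets each member against 1 leukocyte gene, a description chosen after the values were seen. S100a9 over Ptprc was 1.20 in castrated 1, 0.228 and 0.200 in castrated 2 and 3, and 0.853 and 0.876 in intact samples. Csf3r over Ptprc was 0.288, 0.187 and 0.188 in castrated and 0.504 and 0.209 in intact samples. The groups thus overlapped for Csf3r on this scale, although its CPM did not. Il1b over Ptprc was 0.290, 0.259 and 0.130 in castrated and 0.352 and 0.376 in intact samples, where all castrated samples lay below both intact samples while the CPM of Il1b overlapped. For the other 5 tested members the groups overlapped. These orders depend on the gene divided by, since Itgb2 over Ptprc itself ranged from 1.03 to 3.38. Over the 6 leukocyte genes in turn, castrated samples were all lower with 2 of them for Il1b (Ptprc and Laptm5). For Csf3r they were all lower with 2 (Laptm5 and Cd53), and the groups overlapped with the other 4 for both genes. Over the sum of the 6, castrated samples were all lower for both. Csf3r was then 0.033, 0.020 and 0.026 in castrated against 0.050 and 0.036 in intact samples. Il1b was 0.033, 0.028 and 0.018 against 0.035 and 0.065.

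**Figure D5:**
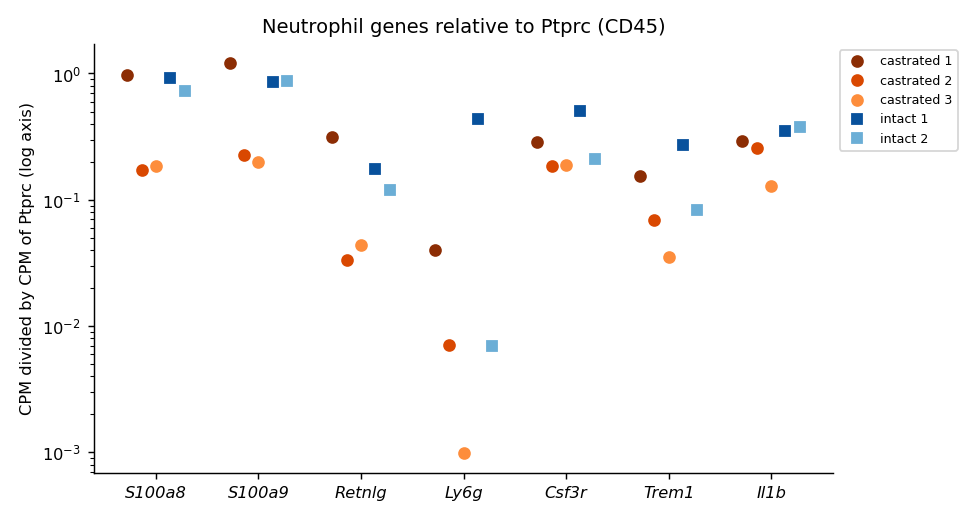
CPM of each tested neutrophil gene divided by the CPM of Ptprc (log axis) in castrated (circles) and intact (squares) samples. Of these genes only Il1b has all castrated samples below both intact samples, which with 4 of 6 leukocyte genes as the divisor it does not. Csf3r overlaps, with 0.187 to 0.288 in castrated and 0.209 to 0.504 in intact samples. With the sum of the 6 as the divisor, all castrated samples lie below both intact samples for Il1b and Csf3r.

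Genes with the profile most like S100a9 and Csf3r were sought by the root mean square difference of centred log2 CPM over the 5 samples. For S100a9 the nearest were Lrmda (0.14), S100a8 (0.18), Mras (0.18), Gpr171 (0.19) and Sox7 (0.20). For Csf3r they were Cln8 (0.061), Inpp5d (0.067), Pik3cg (0.087), Irf8 (0.088) and Gucy2c (0.097). Inpp5d, Pik3cg and Irf8 are genes of myeloid and other blood cells. With 5 samples and 14612 genes, close profiles are common, and these lists are a description only.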

How the data were processed

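Raw read counts per gene were deposited without normalization. Per the labels and methods, the authors prepared RiboErase libraries, and their tools were Trimmomatic 0.39 for trimming, STAR 2.7.9 for alignment (mm10) and HTSeq 2.0.2 for counting. The strand setting was not given in the sources used here. Gene lengths deposited in kilobases were used for TPM. Samples were grouped by their titles, and none was left out. The labels give separate identifiers but do not name litters, so p-values measure the spread between these samples. No pair within a group held the same library (chi-square per gene of 134 or more).

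The software was DESeq2 1.42.0, limma 3.58.1 and edgeR 4.0.16 under R 4.3.3. The filter asked for a CPM above 1 in 2 or more samples, and the test was edgeR's quasi-likelihood test on the counts after TMM normalization. The study's methods name the same test but TPM as its input, in an older edgeR, and TPM was an alternative here. P-values were Benjamini-Hochberg adjusted over all genes tested. Standard errors are the log2 fold change over the root of F. CPM and overlap use total counts. Members and lists were chosen with earlier results of these data known. From each list the text names the 3 genes with the highest mean log2 CPM and those with an unadjusted p under 0.05, and other genes were named after their values were seen. A gene of the mature neutrophil list is counted but not reported here. The fit was tested on simulated counts. It called 8 of 98 genes changed by 2 on the log2 scale and 46 of 96 changed by 3. Both sizes were in the same simulated counts, in which 6 unchanged genes were also called. Alternatives were other scalings, filters and tools, TPM with limma, leaving out samples and the replicate number as a block, and the older quasi-likelihood fit, which was chosen after seeing the data.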

Additional observations from a re-analysis of the deposited data

How the results depend on the processing

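Directions of the 7 tested members held in 121 of 125 alternative values. The 4 that reversed came from leaving out 1 sample. Over those fits log2 fold changes ranged from -0.085 to 0.67 for S100a8, which was -0.085 without castrated 1 and -0.080 without intact 1, from -0.055 to 1.07 for S100a9 and from -3.16 to 1.72 for Ly6g, the last 2 genes reversing without intact 1. Members with an unadjusted p under 0.05 numbered 1 of 7 with all samples, and 0 to 1 over the fits without 1 castrated sample. With no filter 3 of 10 members were under 0.05, as were 2690 of all 19791 genes tested. The filterByExpr fit had 2 of 8 members and 2341 of 15526 genes under 0.05. No member was under 0.05 with limma voom or with TPM and limma, where 1654 and 1839 of 14612 genes were. Without castrated 2, castrated 3, intact 1 or intact 2 the p of Csf3r was 0.114, 0.0866, 0.0983 and 0.141, each above the threshold, and Ly6g was under it without intact 2 (0.0471), and the cause was not tested. Fits without intact 1 or intact 2 hold 1 intact library, so their p-values take the spread from the castrated samples alone and assume that the lone sample varies like them. The number of genes called was 989 with DESeq2, 369 with the likelihood ratio test and 0 to 1 without 1 sample (1 without intact 1), and 0 otherwise, while 2195 genes had an unadjusted p under 0.05. That count was 1094 without castrated 2 and 1011 without castrated 3.

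When replicate numbers formed a replicate block, in which castrated 3 has no partner and adds nothing to the contrast, 0 genes were called and 1046 had an unadjusted p under 0.05. Of the members Il1b alone was under 0.05 with that block (1 member, at 0.0495), and Csf3r was at 0.132. Deviations of same-numbered samples correlated at 0.149 and -0.045, so they share only a number. Fewer than 20 counts for Elane and Csf3 in every sample limit what can be read from them.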

Other observations

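Other granulocytes were read from lists of their own. All 6 mast cell genes tested (Cpa3, Kit, Tpsb2, Mcpt4, Fcer1a and Cma1) had an unadjusted p under 0.05 and groups that did not overlap, castrated samples being higher, and the median of their log2 fold changes was 3.82. Cma1, a mast cell chymase, had 519, 370 and 855 counts in castrated and 26 and 27 in intact samples (adjusted p = 0.289, edgeR's quasi-likelihood test). The eosinophil genes Siglecf and Ccr3 had log2 fold changes of 2.45 and 3.61, while Epx, the eosinophil counterpart of Mpo, had at most 4 counts in any sample. T cell genes overlapped between groups except for Cd4, and Cd8a was highest in intact 2, with 219 counts. Stromal genes differed among themselves. The proteoglycan genes Dcn and Lum and the fibroblast receptor gene Pdgfra had log2 fold changes of 2.35, 2.23 and 1.52, each with an unadjusted p under 0.05, whereas the collagen genes Col1a1, Col1a2 and Col3a1 overlapped between groups. Among endothelial genes, Kdr and Tek had estimates of 0.94 and 1.36 with an unadjusted p under 0.05, and Cdh5 was highest in intact 1, at 235 CPM.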
